A study of Schizosaccharomyces pombe with 4 samples.

Results

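The genes of amino acid biosynthesis were described in NET-Seq data from *S. pombe* cells that lack *exo2*. They were chosen by name from the deposited table, as the protein-coding genes called *arg*, *lys*, *his*, *leu*, *trp*, *met*, *ilv*, *aro*, *gln* or *pro* with a digit. Of 49 such names, *leu1* and *his3* were left out, so that 47 genes remained of the 5129 protein-coding genes and 9139 annotated features. They are 10 *arg*, 10 *met*, 7 *lys*, 6 *trp*, 5 *his*, 3 *ilv*, 2 *leu* and 2 *aro* genes, with 1 *gln* and 1 *pro* gene. Against the RefSeq products, 3 of the names stand for something else: *arg82* encodes an inositol polyphosphate kinase, and *trp1322* and *trp663* encode TRP-like ion channel proteins. They were kept as members and are given apart. The other 44 genes encode enzymes of amino acid, siroheme or folate-linked methyl group synthesis, or a protein that activates such an enzyme.

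All libraries came from the strain YAM2507, which carries *exo2*Δ::kanR and *rpb3*-flag::natR and has no auxotrophic allele in its listed genotype. Exo2 is the cytoplasmic 5′-3′ exoribonuclease, and Rpb3 is a subunit of RNA polymerase II (RNAPII) whose Flag tag allows RNAPII to be purified with the RNA it is making. From exponentially growing cells, 2 IP libraries were made from this nascent RNA, in 2 biological replicates. An input library was made from each of the same 2 biological samples by the same steps without the purification of RNAPII, and it resembles a total RNA library. The study's methods name YES and EMM-L as its culture media but do not say which of them these cells had. Libraries of WT cells were not analysed here, so that no value below is an effect of *exo2* deletion.

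A prototrophic fission yeast makes every amino acid of its proteins from central metabolites. Lysine is made through α-aminoadipate, as in other fungi, arginine through acetylated glutamate and ornithine, and the branched-chain and aromatic amino acids through pathways that share their first enzymes. Sulfur enters methionine after sulfate has been activated and reduced. In yeasts these genes respond to the supply of amino acids and nitrogen, through the Gcn2 kinase, bZIP activators and GATA factors.

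Summed over the 9139 features, read totals were 3338808 and 6962801 in the IP and 10172688 and 9114952 in the input. The median amino acid gene had 584 and 1160 IP reads and 434 and 341 input reads, where the median of all protein-coding genes was 172 and 356 IP reads and 102 and 78 input reads. The share of normalized reads on tRNA genes was 7.18% and 6.80% in the IP and 73.9% and 74.99% in the input. The genotype was checked on *exo2* itself. Its longest coding segment had IP densities (normalized reads per nt) of 0.0113 and 0.0104, where the rest of that gene had 0.158 and 0.140. The segment was not empty, with 44 and 86 IP reads and 26 and 23 input reads. The median IP density of protein-coding genes was 0.0853. Across the amino acid genes, replicate log2 densities correlated with r = 0.995 in the IP (47 genes) and r = 0.995 in the input (46 genes), which is a description and no test.

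To show the DNA in front of genes that will be described together, the 250 nt before the annotated start are given for *arg11* and *arg3*, which start back to back 853 nt apart, and for *trp2*. Each is read 5′ to 3′ on the strand of its gene from the RefSeq genome ASM294v3. Capitals mark GATAAG or its reverse complement CTTATC, the letters to which GATA factors are known to bind. The windows are chrI:2272912-2273161 (- strand) for *arg11*, chrI:2273515-2273764 (+ strand) for *arg3* and chrI:2459818-2460067 (- strand) for *trp2*.
arg11: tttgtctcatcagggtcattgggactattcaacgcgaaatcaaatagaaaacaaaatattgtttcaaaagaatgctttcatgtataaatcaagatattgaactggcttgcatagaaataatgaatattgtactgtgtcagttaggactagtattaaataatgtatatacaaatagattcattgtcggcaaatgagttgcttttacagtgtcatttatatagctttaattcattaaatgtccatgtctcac
arg3: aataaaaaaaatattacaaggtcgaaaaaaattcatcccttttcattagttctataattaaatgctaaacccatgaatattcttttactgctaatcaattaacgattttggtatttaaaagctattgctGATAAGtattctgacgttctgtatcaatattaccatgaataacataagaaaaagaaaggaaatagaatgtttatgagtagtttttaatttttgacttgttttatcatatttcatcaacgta
trp2: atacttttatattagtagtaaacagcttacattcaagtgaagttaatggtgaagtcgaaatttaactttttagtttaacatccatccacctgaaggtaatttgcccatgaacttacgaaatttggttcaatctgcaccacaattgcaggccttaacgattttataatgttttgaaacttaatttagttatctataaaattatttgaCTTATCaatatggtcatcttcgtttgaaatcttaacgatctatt
The motif GATAAG, searched on both strands, lies in 4 of the 47 windows (8.51%), those of *trp2*, *arg3*, *trp3* and *arg1*, against 8.99% of 5117 protein-coding genes. It begins 44 nt before the start in *trp2* and 121 nt before the start in *arg3*, while the window of *arg11* has no match. The motif TGACTC, known as the core site of the *S. cerevisiae* activator Gcn4, lies in 2 of 47 windows (4.26%), those of *leu3* and *his7*, against 5.53% of 5117 genes. A match is a description of these letters and not of a site in use.

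Amino acid genes were transcribed at a high level. The median of their IP densities was 0.244 and that of their input densities 0.0701, which ranks at the 85.8th and the 89.3rd percentile among protein-coding genes. Densities are normalized reads per nt of the annotated gene, and where a pair is given it is of replicate 1 and replicate 2. Their IP level thus stood high, and their input level stood somewhat higher still. On the deposited scale, 47 of 47 members were higher in the IP than in the input (limma, adjusted p under 0.05), but so were 98.8% of protein-coding genes and 91.6% of all features, and the median gene had a log2 IP over input of 2.38. For the comparisons that follow, each library was therefore centred on its median protein-coding gene, and the resulting log2 IP over input is called the relative ratio. A relative ratio of 0 means that a gene stands in the IP as it does in the input, each set against its library's median gene, and a negative one that it stands lower in the nascent RNA.

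On this relative scale, 30 of the 47 genes were lower in the IP, 3 were higher and 14 were not called. Over the 8651 features tested, 16.4% were called lower and 9.58% higher, and over the 5043 protein-coding genes tested 21.4% were lower and 10.4% higher. The members' median relative ratio was -0.46, with -0.44 in replicate 1 and -0.48 in replicate 2, against -0.092 over all protein-coding genes. In 34 members both IP libraries lay below both inputs and in 7 members both lay above, where 41.5% and 26.9% of protein-coding genes and 35.7% and 27.5% of all features did so. Without *arg82*, *trp1322* and *trp663*, 30 of 44 genes were lower and 2 were higher, with a median of -0.48. The 3 genes higher in the IP were *lys7*, *met3* and *trp1322*. How many genes pass depends on the test and on the scale: limma without a trend in the variance called 5 members lower (*ilv5*, *leu3*, *lys1*, *met26*, *trp1*) and 1 higher (*trp1322*), where 4.92% and 2.55% of all features were lower and higher. With each library scaled to its total over protein-coding genes, 40 members were higher, and so were 73.0% of all features. edgeR on the recovered reads called the same 30 genes lower and the same 3 higher, where 19.2% and 15.5% of the 7097 features it tested were lower and higher.

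**Figure D1:**
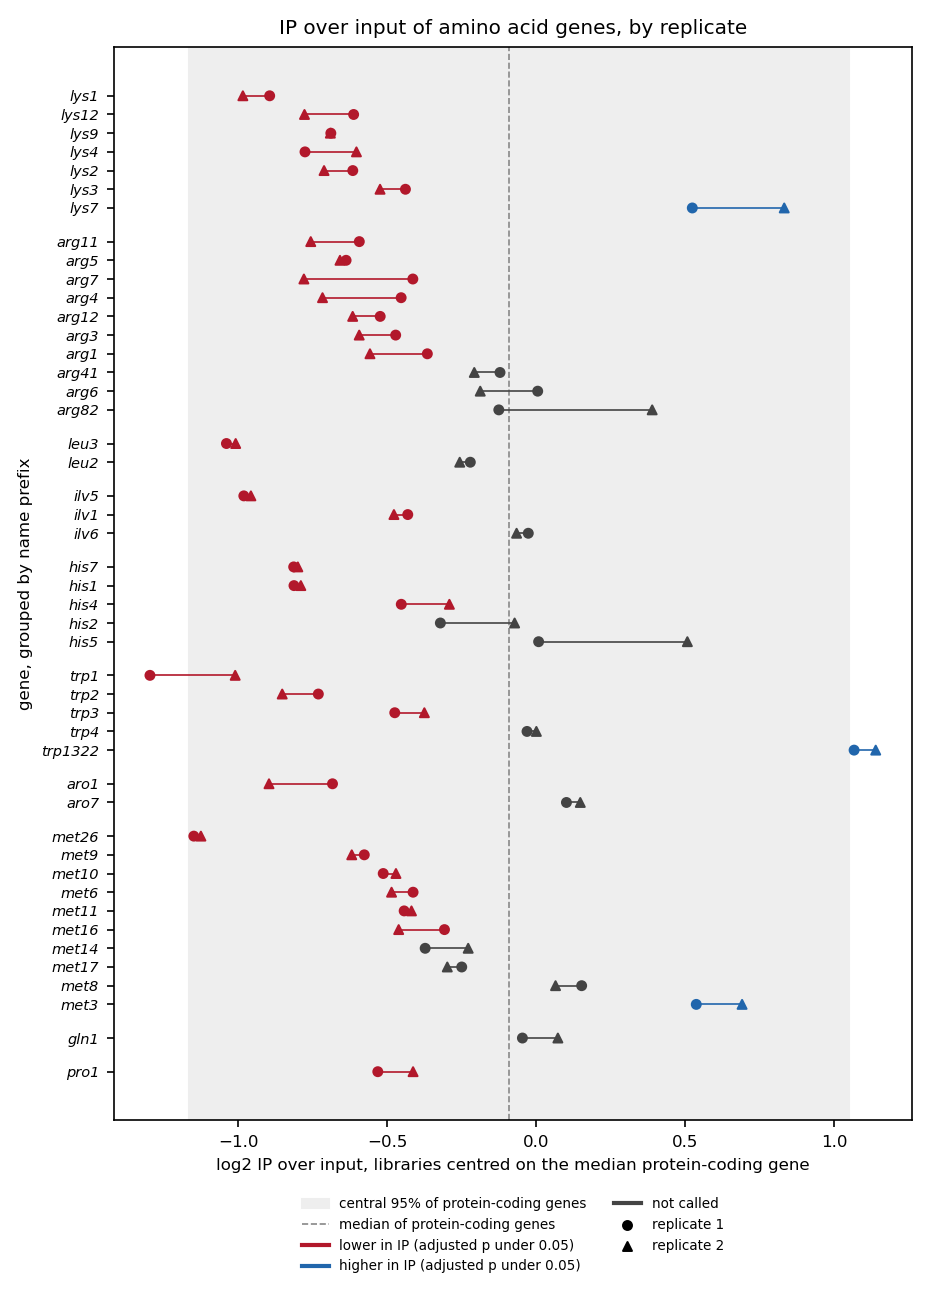
Relative log2 IP over input of 46 members (x axis), grouped by name prefix (y axis), with a circle for replicate 1 and a triangle for replicate 2; *trp663*, with at most 1 read in an input library, is not drawn. Most red genes (lower in the IP) lie left of the dashed median gene at -0.092 and inside the grey range of -1.17 to 1.05 that holds 95% of protein-coding genes, and *trp1322* lies just above that range with 1.10.

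The lysine genes had the lowest median relative ratio of the name prefixes with 3 or more members. Over the coding sequence alone the *ilv* median was lower, at -0.95 against -0.70 for *lys*. The enzymes of the α-aminoadipate route are, in the order of the steps, homocitrate synthase (*lys4*), homoaconitate hydratase (*lys2*), homoisocitrate dehydrogenase (*lys12*), aminoadipate-semialdehyde dehydrogenase (*lys1*) and the saccharopine dehydrogenases (*lys9* and *lys3*). These 6 genes were lower in the IP, with relative ratios of -0.94 to -0.48, and 1 gene of the prefix, *lys7*, was higher; the median over the 7 was -0.69. *lys1* (SPAP7G5.04c, chromosome I, 3739076 to 3743492, - strand) had IP densities of 0.247 and 0.222, against input densities of 0.0882 and 0.0737. In limma its relative ratio was -0.94 (SE 0.09, adjusted p = 5.68e-05), where replicate 1 gave -0.90 and replicate 2 gave -0.99. The IP over input of *lys1* was thus 1.92-fold below that of a gene whose relative ratio is 0. *lys7* (SPAC17C9.02c, chromosome I, 4496733 to 4498140, + strand) encodes the phosphopantetheinyl transferase that activates the Lys1 enzyme. It had IP densities of 0.0859 and 0.0963, against input densities of 0.0113 and 0.00886. Its IP density ranked at the 53.0th percentile and its input density at the 33.4th, the lowest of the lysine genes in both. Its relative ratio was 0.68 (SE 0.16, adjusted p = 0.0135). It rested on 50 and 35 input reads and was 0.62 over the coding sequence alone, and the call was lost without IP replicate 2 (0.58, adjusted p = 0.107 from limma). The 6 enzymes stood between the 85.1st and the 96.1st percentile in the IP, with *lys4* highest at IP densities of 0.724 and 0.794.

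Among the arginine genes, 7 of 10 were lower in the IP and 3 were not called, with a median of -0.55. The first steps, on acetylated intermediates, are carried out by acetylglutamate synthase (*arg6*), by the protein of *arg11*, which is both acetylglutamate kinase and the reductase after it, and by acetylornithine aminotransferase (*arg1*). *arg11* (SPAC4G9.09c, chromosome I, 2269908 to 2272911, - strand) had the lowest relative ratio over the whole gene, at -0.68 (SE 0.09, adjusted p = 0.000471 from limma). It had IP densities of 0.230 and 0.217, against input densities of 0.0667 and 0.0614. Its divergent neighbour *arg3*, for ornithine carbamoyltransferase, is the gene whose upstream sequence with a GATAAG match is shown above. *arg3* had lower IP densities of 0.0788 and 0.0784, against input densities of 0.0209 and 0.0197. The pair thus differed in amount while both were called lower, *arg3* at -0.53. Carbamoyl phosphate for this step comes from the enzyme encoded by *arg5* (small subunit) and *arg4* (large subunit), at -0.65 and -0.59. Over the coding sequence alone *arg5* was at -0.97, below *arg11* at -0.74. The genes of the last steps, argininosuccinate synthase (*arg12*, -0.57) and argininosuccinate lyase, complete the route. For the lyase there are 2 genes, *arg7* and *arg41*, with 69.0% identity over their aligned coding sequences and no 25-nt run in common. *arg7* (SPBC1773.14, chromosome II, 312809 to 314761, + strand) had IP densities of 0.0481 and 0.0454, against input densities of 0.0122 and 0.0130, the lowest IP level of the arginine genes. Its relative ratio of -0.60 (SE 0.16, adjusted p = 0.0249) lost the call without IP replicate 2 and without input replicate 2 (adjusted p = 0.0607 and 0.0998 from limma). *arg41* was at -0.16 and *arg6* at -0.091, neither of them called. The difference between *arg7* and *arg41* was not tested.

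**Figure D2:**
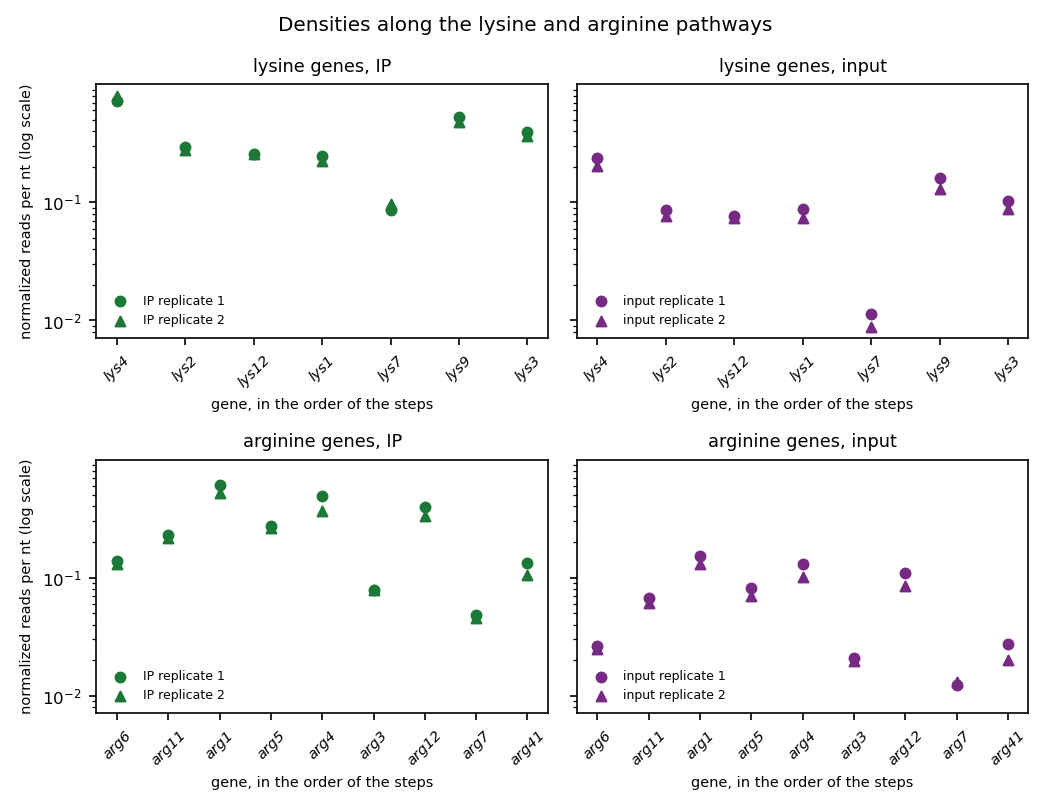
Density in normalized reads per nt (log scale, y axis) of the lysine and arginine genes in the order of their steps (x axis), with IP libraries in the left panels and input libraries in the right panels and 1 symbol per replicate. *lys7* is the lowest lysine gene on both sides but drops further in the input, and *arg7* and *arg3* are the lowest of the 9 arginine genes drawn.

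The branched-chain genes hold some of the most transcribed members. Acetolactate synthase, whose catalytic subunit is encoded by *ilv1* and regulatory subunit by *ilv6*, and the reductoisomerase encoded by *ilv5* serve isoleucine, valine and leucine together. *ilv5* (SPBC56F2.12, chromosome II, 4086673 to 4088191, - strand) had IP densities of 1.54 and 1.53, against input densities of 0.587 and 0.498, at the 98.7th percentile in both. Its relative ratio was -0.97 (SE 0.09, adjusted p = 5.58e-05). *ilv6* (SPBC14C8.04, chromosome II, 2210047 to 2211918, + strand) had IP densities of 0.377 and 0.379, against input densities of 0.0738 and 0.0665, and its relative ratio of -0.046 was not called (SE 0.09, adjusted p = 0.758). The regulatory subunit gene thus lay near the median gene, while *ilv1* (-0.45) was called lower. Leucine branches off through 2-isopropylmalate synthase, encoded by *leu3*. *leu3* (SPBC3E7.16c, chromosome II, 2688416 to 2690687, - strand) had IP densities of 0.769 and 0.832, against input densities of 0.304 and 0.281, and a relative ratio of -1.02 (SE 0.10, adjusted p = 5.75e-05). The next enzyme is isopropylmalate dehydratase, from *leu2* (SPAC9E9.03, chromosome I, 4439837 to 4442513, + strand), with IP densities of 0.627 and 0.562 against input densities of 0.140 and 0.113. Its relative ratio of -0.24 was not called (SE 0.10, adjusted p = 0.0972), so that of these neighbouring steps only the first passed the test; their difference was not tested.

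Histidine genes spread over a wide range, with 3 of 5 lower in the IP and 2 not called (median -0.37). The first enzyme, ATP phosphoribosyltransferase (*his1*), was at -0.80, and *his7*, whose protein carries out the pair of steps after it, was at -0.81. *his7* (SPBC29A3.02c, chromosome II, 2040733 to 2042218, - strand) had IP densities of 0.262 and 0.227, against input densities of 0.0884 and 0.0662 (SE 0.11, adjusted p = 0.000497). At the later step of imidazoleglycerol-phosphate dehydratase, *his5* (SPBC21H7.07c, chromosome II, 2266351 to 2267397, - strand) had IP densities of 0.163 and 0.164, against input densities of 0.0310 and 0.0191. Its relative ratio was 0.26 (SE 0.17, adjusted p = 0.295), with 0.0081 and 0.51 in the replicates, and of the libraries left out in turn only the removal of input replicate 1 made it a call (0.50, adjusted p = 0.0303 from limma). The input libraries of *his5* differ more than its IP libraries, which were alike. *his4*, for imidazoleglycerol-phosphate synthase, was called lower at -0.37, a call lost without IP replicate 1 and without input replicate 1. *his2*, for the last enzyme histidinol dehydrogenase, was at -0.20 and not called.

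In the aromatic route the multifunctional Aro1 protein carries several steps of the shikimate pathway, and the route divides at chorismate. *aro1* (SPAC1834.02, chromosome I, 4693681 to 4698606, + strand) had IP densities of 0.252 and 0.224, against input densities of 0.0778 and 0.0699, and a relative ratio of -0.79 (SE 0.10, adjusted p = 0.000207). Chorismate mutase opens the branch to phenylalanine and tyrosine, and its gene *aro7* (SPAC16E8.04c, chromosome I, 3505603 to 3507057, - strand) had IP densities of 0.0900 and 0.0902 against input densities of 0.0160 and 0.0135. At 0.12 it was not called (SE 0.14, adjusted p = 0.564). On the tryptophan branch, *trp1* and *trp3* encode the components of anthranilate synthase, *trp4* the phosphoribosylanthranilate transferase and *trp2* tryptophan synthase. *trp1* (SPBC1539.09c, chromosome II, 4377221 to 4379500, - strand) had the lowest relative ratio of all 47 genes. It had IP densities of 0.140 and 0.156, against input densities of 0.0663 and 0.0527, so that it stood at the 73.9th percentile in the IP and at the 87.4th in the input. In limma its relative ratio was -1.15 (SE 0.10, adjusted p = 3.32e-05), where replicate 1 gave -1.30 and replicate 2 gave -1.01. The IP over input of *trp1* was thus 2.23-fold below that of a gene whose relative ratio is 0. The other synthase component, *trp3*, was at -0.43 and *trp2* at -0.79, both called lower, while *trp4* lay at -0.015 and was not called. Over these 4 genes the median was -0.61. All 1912 nt of *trp3* lie opposite the annotated *rpb3* gene, which carries the Flag tag in this strain, and any effect of the tag on *trp3* was not tested. *trp1* is the 1 member annotated with no part outside its coding sequence. Over the coding sequence alone *met26* was the lowest member at -1.12, next to *trp1* at -1.11.

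Methionine genes include the member with the highest level in either kind of library. *met26* (SPAC9.09, chromosome I, 1478383 to 1481172, + strand), which encodes the homocysteine methyltransferase of the last step, had IP densities of 3.21 and 3.08, against input densities of 1.37 and 1.13. It ranked at the 99.7th percentile in the IP and the 99.6th in the input, and its relative ratio was -1.14 (SE 0.13, adjusted p = 0.000170). *met9* and *met11*, for the methylenetetrahydrofolate reductases that supply the methyl group, were lower too, at -0.60 and -0.43. Of the sulfate branch, *met16* (PAPS reductase, -0.39) and *met10* (sulfite reductase flavoprotein, -0.49) were called lower, and *met14* (adenylyl-sulfate kinase, -0.30) was not. The call of *met16* was lost with a pseudocount 10 times smaller and without IP replicate 1, IP replicate 2 or input replicate 2, and its relative ratio was -0.19 over the coding sequence alone. That of *met10* was lost without input replicate 1. *met8* (SPAC4D7.06c, chromosome I, 5360356 to 5361666, - strand), for the synthase of siroheme, the cofactor of sulfite reductase, had IP densities of 0.0404 and 0.0369 against input densities of 0.00680 and 0.00571. It was among the least transcribed members, with 28 and 21 input reads, and its relative ratio of 0.11 was not called (SE 0.23, adjusted p = 0.773). The carbon chain enters through homoserine O-acetyltransferase (*met6*, -0.45, lower) and homocysteine synthase (*met17*, -0.27, not called). *met3* (SPBC15D4.09c, chromosome II, 3026393 to 3028430, - strand) encodes cystathionine gamma-synthase, which joins cysteine to that chain on the other route to homocysteine. It had IP densities of 0.157 and 0.143, against input densities of 0.0206 and 0.0147, at the 74.3rd percentile in the IP and the 56.5th in the input. Its relative ratio was 0.61 (SE 0.13, adjusted p = 0.00584), with 0.54 and 0.69 in the replicates. Of the 10 *met* genes, 6 were lower, 1 was higher and 3 were not called, with a median of -0.41.

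Glutamine synthetase and proline synthesis are represented by 1 gene each. *gln1* (SPAC23H4.06, chromosome I, 1596073 to 1598149, - strand), which fixes ammonia onto glutamate, had IP densities of 0.692 and 0.570, against input densities of 0.137 and 0.0908. With a relative ratio of 0.013 (SE 0.14, adjusted p = 0.960) it was not called, although its IP level was at the 95.2nd percentile. *pro1* (SPAC821.11, chromosome I, 1006259 to 1008003, + strand), for gamma-glutamyl phosphate reductase, had IP densities of 0.1198 and 0.122, against input densities of 0.0332 and 0.0272. Its relative ratio was -0.47 (SE 0.11, adjusted p = 0.0114).

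Of the 3 members that are no enzymes of these pathways, 1 was called higher and 2 were not called. *trp1322* (SPCC1322.03, chromosome III, 1287903 to 1291811, + strand) had IP densities of 0.152 and 0.146, against input densities of 0.0139 and 0.0110. Its relative ratio of 1.10 (SE 0.10, adjusted p = 3.34e-05 from limma) was the highest of the called members, and was 1.14 over the coding sequence alone. Its IP over input was thus 2.15-fold above that of a gene with a relative ratio of 0. *trp663* (SPCC663.14c, chromosome III, 1657631 to 1659783, - strand) held 5 and 10 IP reads against 0 and 1 input reads. At these reads its relative ratio follows the pseudocount, with 1.01 (not called) as tested and -1.11 (called lower) with a pseudocount 10 times larger, and no direction is read from it. It lies wholly opposite *cid12* and opposite novelncTU_231, an annotated non-coding unit with IP densities of 0.0446 and 0.0391 against input densities of 0.0110 and 0.00906. The mean IP density of *trp663* was 0.00226, below that of the unit opposite (0.0418). *arg82* (SPAC607.04, chromosome I, 2042399 to 2043469, + strand) had IP densities of 0.0719 and 0.0956, against input densities of 0.0149 and 0.0120, and a relative ratio of 0.13 (SE 0.20, adjusted p = 0.679) with -0.13 and 0.39 in the replicates.

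**Figure D3:**
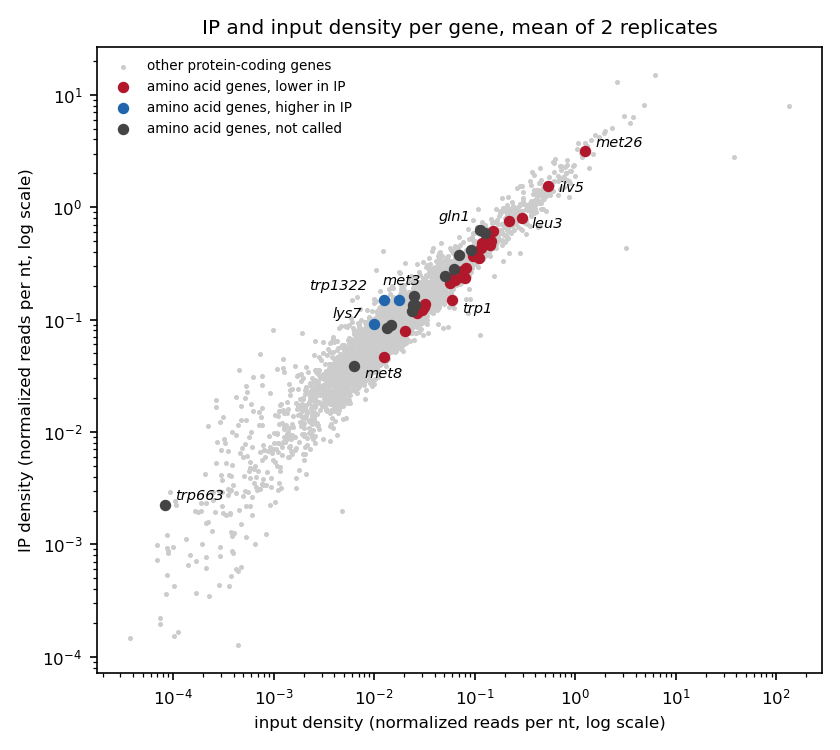
IP density (y axis) against input density (x axis) in normalized reads per nt, both on log scales and as means of 2 replicates, for protein-coding genes above 0 in both (grey) and the 47 members (coloured by call). Most members sit at the upper end, with *met26* at 3.15 and *ilv5* at 1.54 in the IP, and the 3 members higher in the IP lie on the upper side of the grey cloud at lower input.

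Across the genome the relative ratio was lowest among the most transcribed genes, to which many amino acid genes belong. With protein-coding genes divided into 5 equal groups by IP density, 29 of the 47 members were in the highest group, from an IP density of 0.181 upward. There, 23 of the 29 members were called lower with a median of -0.60, against 56.5% of 997 other genes with a median of -0.41. In the next group 5 of 11 members were lower and 2 were higher, with a median of -0.16, against 19.9% lower and 15.2% higher of 1015 other genes with a median of -0.066. The other 3 groups together held 7 members. From the lowest group upward, the member medians were 0.56 (2 members), -0.60 (1 member) and 0.13 (4 members). Other genes of these groups had medians of -0.0072, 0.0025 and -0.015. Members thus lay lower than other genes of the upper groups, but by less than against all genes, and the part of the level in the members' ratios was not tested.

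Within genes, the coding sequence and the annotated rest (UTRs and introns) were compared in the 37 members with at least 10 reads in each part of every library and 50 nt or more outside the coding sequence. The median density of the coding sequence over that of the rest was 1.44 and 1.57 in the IP, against 2.05 and 1.88 in the input. Over the 2973 protein-coding genes that met the same limits it was 1.60 and 1.64 in the IP, against 1.96 and 1.75 in the input. The ratio was lower in the IP than in the input in both replicates in 27 of 37 members (73.0%), against 53.6% of genes. It was below 1 in both IP libraries in 2 members, *ilv1* and *arg5* (5.41%), against 11.5% of genes. These genes were chosen after their values were seen. In *ilv1* (SPBP35G2.07, chromosome II, 976926 to 979390, + strand) the coding sequence had 0.36 and 0.32 times the density of the rest in the IP libraries, against 1.59 and 1.54 times in the input libraries. That places *ilv1* at the 1.01st and 0.87th percentile of genes in the IP, so that its nascent RNA was denser outside the coding sequence, which has 183 nt before it and 272 nt after it. Over the coding sequence alone the relative ratio of *ilv1* was -0.95, in place of -0.45 over the gene. In *arg5* the coding sequence had 0.94 and 0.87 times the density of the rest in the IP libraries, against 1.86 and 1.88 times in the input libraries. It has 490 nt before it. Over the coding sequence alone the relative ratio of *arg5* was -0.97, in place of -0.65 over the gene. Which side of the coding sequence holds the reads outside it was not tested.

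**Figure D4:**
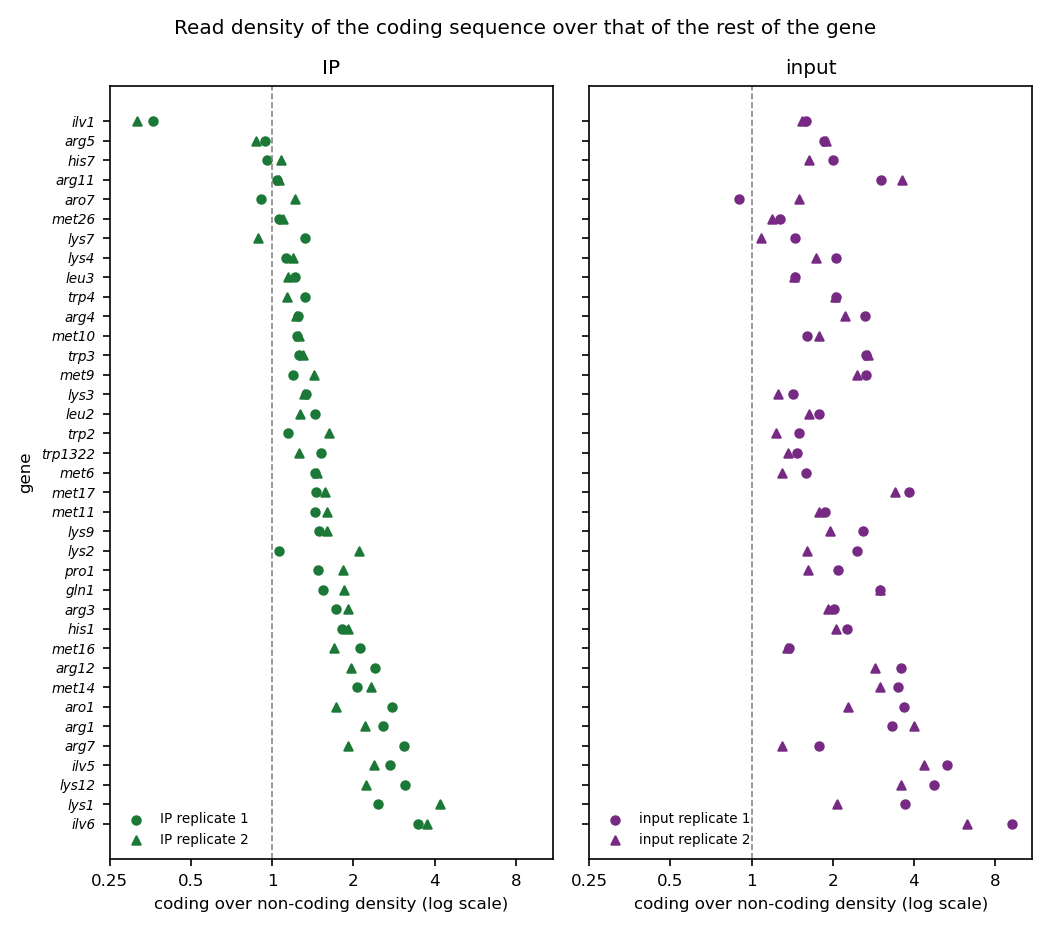
Density of the coding sequence divided by that of the rest of the gene (log scale, x axis) for 37 members (y axis, ordered by the IP), in the IP libraries on the left and the input libraries on the right, with 1 symbol per replicate and a dashed line at 1. *ilv1* lies at 0.36 and 0.32 in the IP and at 1.59 and 1.54 in the input.

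Antisense transcription over these genes was counted, since the annotated XUTs, the transcripts that accumulate when Exo2 is missing, lie mostly opposite genes. A XUT lay opposite 6 of 47 members over 50 nt or more (12.8%), against 21.2% of protein-coding genes. The 6 genes are *pro1* (XUT0512), *arg82* (XUT0566), *arg3* (XUT0583), *met8* (XUT1622), *trp4* (XUT0428) and *met10* (XUT0886). XUT1622 lies wholly opposite *met8* and had IP densities of 0.0144 and 0.0164, against input densities of 0.000917 and 0.00103, which rest on 5 and 12 IP reads and 1 and 1 input reads. That is below the level of *met8* itself in both IP libraries, and the same held for the mean IP density of the other 5 XUTs and their genes. A longer feature, SPNCRNA.1077, lies opposite 1098 of the 1311 nt of *met8*, with IP densities of 0.0337 and 0.0312 against input densities of 0.000748 and 0.00168. Its IP level was near that of *met8*, while its mean input density of 0.00121 was below the 0.00625 of *met8*. The relative ratio of SPNCRNA.1077 was 2.08 (adjusted p = 0.00727 from limma) and rests on 43 and 84 IP reads and 3 and 6 input reads. Any antisense non-coding feature lay opposite 20 members (42.6%), against 36.2% of genes. The antisense feature with the most reads among them was SPNCRNA.1597, with IP densities of 0.121 and 0.146 against input densities of 0.0588 and 0.0527. It is 2977 nt long and runs opposite all 1648 nt of *lys9*, so that its densities also cover sequence outside *lys9*. *lys9* itself had IP densities of 0.523 and 0.478, against input densities of 0.162 and 0.129. On the same strand, 12 of 47 members overlap another annotated feature, so that reads there may be counted on both. Among them are *lys7*, *trp1322* and *met26*. The coding sequence came in several segments in 11 members (23.4%), against 46.7% of genes, a description with no test.

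Other genes of amino acid metabolism were taken from lists of names, and their counts stand beside the 21.4% lower and 10.4% higher of all protein-coding genes. Of 24 further biosynthetic names, 20 were matched, and 13 of these genes were lower, 7 were not called and the median was -0.57. Among them were *tda1*, for threonine ammonia-lyase (-0.92), *shm1*, for serine hydroxymethyltransferase (-0.85), *eca39*, for the branched-chain aminotransferase (-0.84) and *sam1*, for S-adenosylmethionine synthetase (-0.60). Of 4 genes of amino acid breakdown, 3 were lower: *gdh2*, for NAD-dependent glutamate dehydrogenase (-1.03), *car2*, for ornithine transaminase (-0.91) and the arginase gene *aru1* (-0.32). Of 6 regulators, *cpc2*, for the ribosomal RACK1 protein (-1.27), and *gcn1* (-0.72) were lower, and the GATA factor gene *gaf1* (0.42) and the kinase gene *gad8* (0.31) were higher. Over the coding sequence alone *gaf1* was at -0.056, on the other side of 0, and *gad8* was at 0.19, *cpc2* at -0.78 and *gcn1* at -0.68. Of 7 amino acid permease genes 0 were called, also 0 at an unadjusted p under 0.05 and 0 by edgeR. Their median was 0.12, but the medians of the replicates differed in sign, with 0.089 in replicate 1 and -0.23 in replicate 2. By their RefSeq symbols alone, 8 more genes fall under the same names, and 3 of them were lower: *pro3* (-0.74), *aro2* (-0.66) and *ilv3* (-0.47). The other 5, *his6*, *leu5*, *met1*, *met7* and *pro2*, were not called.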

How the data were processed

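Nascent (IP) and total (input) RNA of *exo2*Δ *rpb3-flag* cells was sequenced in 2 biological replicates. The authors removed the 5′ adapter and kept reads that Bowtie mapped uniquely to the genome build ASM294v2. The counting tool and the basis of the library factor are not given in the sources used here. The authors' column for IP replicate 1 holds whole counts. In the deposited columns of the other libraries the signal is counts times a factor of that library, and density is this signal per nt. The step of 1 read is 1 and 0.474 in the IP and 0.318 and 0.357 in the input, and 100% of the values came out whole (tolerance 1e-06). Reads without molecular identifiers may be copies, so precision from counts covers counting error only.

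limma 3.58.1 with trend (R 4.3.3) compared IP with input on log2(normalized reads + 0.318), a scale that understates the change of low genes. The 8651 features above 0 in at least 2 libraries were tested, with Benjamini-Hochberg adjustment over all and calls at 0.05. Libraries were centred on the median protein-coding gene, or left as deposited. edgeR 4.0.16 was run on the recovered reads, and both were tested on simulated data. Genes given in full are the highest and lowest of each prefix by relative ratio, the most changed in each direction and the 3 highest and lowest by IP density. Members and lists were chosen with earlier results of these data known. The labels state that input and IP of a replicate share a biological sample, and over 4644 genes their replicate differences correlate with r = 0.156. Gene products came from RefSeq. Of 5118 coding sequences on chromosomes I to III, 5112 are whole open frames at the same coordinates in ASM294v3, so sequences were read there. Alternatives were other pseudocounts, filters, tests and scalings, the replicate block, libraries left out, and coding sequence only.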

Additional observations from a re-analysis of the deposited data

How the results depend on the processing

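The calls depend on the scale. Deposited values called 47 members higher, and centred ones 3 higher and 30 lower, with 829 and 1420 of all features. Scaled to the protein-coding total, 40 members were higher and 0 lower (6312 and 242 of all features). On that scale log2 IP over input is not centred, and the median protein-coding gene was at 1.04. It was 0.44 for *arg11*, 0.53 for *arg7*, 0.33 for *aro1*, 0.31 for *his7* and 0.15 for *ilv5*. For *ilv6* it was 1.07, for *leu2* 0.88, for *leu3* 0.093, for *lys1* 0.18 and for *pro1* 0.65. A scaling chosen after seeing the data left 20 genes on small RNA genes out of that total, which hold 2.05% and 2.06% of it in the IP and 35.2% and 38.8% in the input. It gave 8 members higher and 7 lower (2834 and 544 of all features), with *ilv6* at 0.44, *leu2* at 0.24 and *pro1* at 0.014. The median protein-coding gene was at 2.38 as deposited, 1.04 and 0.42 with these totals, and -0.092 centred, and since a scaling moves all genes of a library together, it says little about the members' place among them.

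limma without trend called 1 member higher and 5 lower (221 and 426 of all features). With a pseudocount 10 times larger, 3845 features were lower and the median of all features was -0.34 in place of -0.067. It called 31 members lower, adding *trp663*, which turned to -1.11 in place of 1.01, with *ilv6* at 0.032 and *met8* at -0.13. A pseudocount 10 times smaller called 29 lower, without *met16*. The replicate block called 32 members lower, adding *met14* and *met17*, and 3 higher, and changed no other member's call. Without a filter *gln1* was at -0.0010. Leaving out 1 library in turn gave 28 to 29 members lower and 2 to 4 higher, 494 to 983 features higher, -0.088 to 0.35 for *arg82* and -0.18 to 0.21 for *gln1*. *arg7*, *his4*, *met10*, *met16* and *lys7* lost their call in at least 1 of these, and *met17* (lower) and *his5* (higher) gained one. The members' median became -0.36 as a mean and -0.40 with the larger pseudocount, and the *aro* median 0.12 without *aro1*, which shares its strand with another feature. Over the named members and alternatives, 249 values kept direction and side of the threshold, 20 turned direction, 15 lost their call and 9 gained one. The causes were not tested beyond the construction of each setting. Depth limits *trp663* and *met8*, with 0 and 1 and with 28 and 21 input reads.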
